A study of Homo sapiens with 3 samples.

Results

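The 38 genes described here encode the enzymes of glycolysis, glucose and lactate transporters, the oxygen-regulated subunits of the hypoxia-inducible factors (HIF), their oxygen sensors and a set of genes that low oxygen switches on. They were found by gene symbol and all 38 were among the 24424 genes of the deposited count table. RNA was measured in 3 populations of A375SM, a melanoma line derived from the human line A375, each infected with a lentiviral vector that carries a green fluorescent reporter and selected for that reporter as a stable pool. The shPRAME population carried a hairpin against PRAME, a cancer-testis antigen, the shBAP1 population a hairpin against BAP1, a nuclear deubiquitinase and tumour suppressor, and the shEmpty population the control vector. The series' design text calls the control hairpin non-targeting, while its name calls it empty. All populations were grown in serum-containing medium, and no low-oxygen treatment is given. Each population is 1 library and each target 1 hairpin, so no difference below has a replicate check, and lowering a target cannot be told apart from other effects of its hairpin or of its pool of infected cells.

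Glycolysis splits glucose into pyruvate in the cytosol, and lactate dehydrogenase reduces pyruvate to lactate, which leaves the cell through monocarboxylate transporters. HIF pairs an oxygen-labile alpha subunit, HIF1A or EPAS1, with a stable beta subunit. In the presence of oxygen, EGLN enzymes hydroxylate the alpha subunit and the VHL ligase then marks it for destruction, so HIF is controlled largely at the level of the protein, which transcript counts do not show. Stabilised HIF binds DNA at a short core, ACGTG or GCGTG, near genes for glucose uptake, glycolysis, matrix hydroxylation and mitophagy. Melanoma cells commonly run glycolysis with oxygen present.

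The libraries held 18456328 counts in shPRAME, 14181829 counts in shBAP1 and 19430130 counts in shEmpty cells. Levels are in CPM, a count as a share of the library total, scaled by the trimmed mean of M-values (TMM), and a ratio was computed where the mean count over the 3 libraries was at least 50, which 11956 genes and 35 of the 38 members reached. Below, higher and lower are used of a gene whose fold is at least 2 and whose exact 95% ratio interval leaves out no change. These intervals cover counting error only. PRAME stood at 108 CPM in shPRAME, 455 CPM in shBAP1 and 327 CPM in shEmpty cells, and BAP1 at 97.9 CPM in shPRAME, 35.2 CPM in shBAP1 and 100.0 CPM in shEmpty cells, so each target was lowest under its own hairpin. The 10 melanocyte and melanoma markers, PRAME among them, summed to 4424 CPM in shPRAME, 1971 CPM in shBAP1 and 2717 CPM in shEmpty cells. CSPG4 was the largest part in shPRAME and shEmpty cells, with 3095 CPM in shPRAME, 447 in shBAP1 and 1295 in shEmpty cells. The sums ranked the libraries as CSPG4 did and do not stand for the list as a whole. SOX10 had 657 CPM in shPRAME, 367 CPM in shBAP1 and 506 CPM in shEmpty cells, and the pigment regulator MITF 114 CPM in shPRAME, 239 CPM in shBAP1 and 310 CPM in shEmpty cells. The pigment genes differed: DCT had 0.328 CPM in shPRAME, 112 CPM in shBAP1 and 10.3 CPM in shEmpty cells, and TYR had 0 counts in shPRAME, 573 in shBAP1 and 4 in shEmpty cells, while PMEL had 8 counts in shPRAME, 34 in shBAP1 and 6 in shEmpty cells, and MLANA 7 counts in shPRAME, 19 in shBAP1 and 3 in shEmpty cells.

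In shPRAME cells 2 of the 35 members were higher (5.71%) and 6 lower (17.1%) than in shEmpty cells, and in shBAP1 cells none was higher and 4 lower (11.4%). Over all measured genes 19.3% were called in shPRAME cells, with 10.2% higher and 9.08% lower, and 14.1% in shBAP1 cells, with 5.53% higher and 8.56% lower. With scaling by total count, 49.8% of all calls in shBAP1 cells were upward instead of 39.2%, and the median of all genes moved up by 0.12 on the log2 scale. Both comparisons share the shEmpty library. PGAM1, LDHA and PDK1, lower in shPRAME cells, had log2 ratios of -0.97, -0.66 and -0.85 in shBAP1 cells, short of the 2-fold limit. Ratios below 1 were the majority: 25 of the 35 members had a ratio below 1 in shPRAME cells (71.4%, against 53.6% of all genes), and 27 in shBAP1 cells (77.1%, against 52.4%). The median log2 ratio of the members was -0.54 in shPRAME cells and -0.31 in shBAP1 cells, beside -0.06 and -0.03 for all genes. The shEmpty library held the highest level of 20 members, or 57.1%, against 30.1% of all measured genes. With scaling by total count, ALDOA, PKM, LDHB, SLC16A1 and HIF1A were highest in shBAP1 cells instead. In bulk samples, fewer cells of a type and less RNA per cell cannot be told apart.

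**Figure D1:**
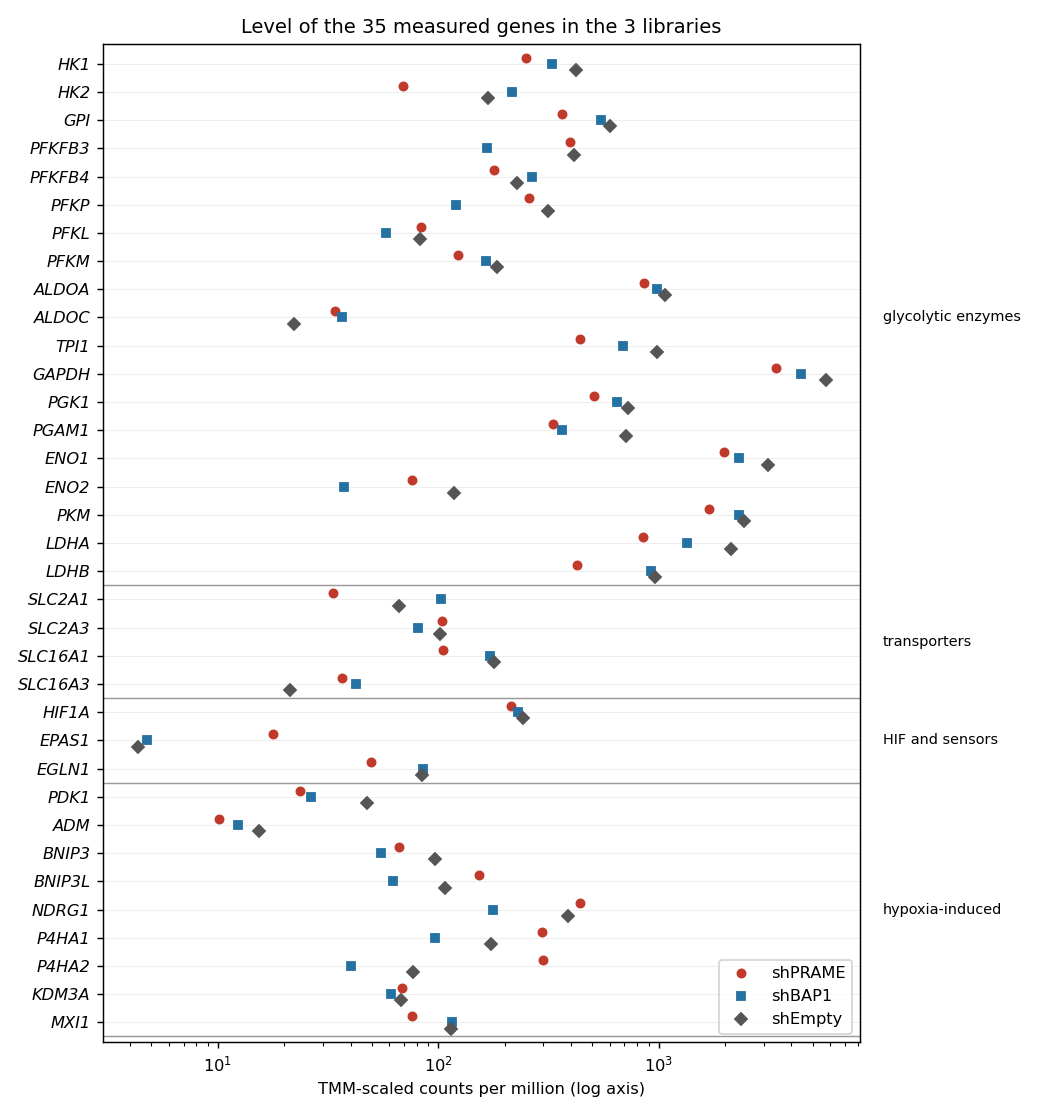
TMM-scaled CPM (log axis) of the 35 measured members in the shPRAME, shBAP1 and shEmpty libraries, 1 point per library and gene. LDHA, LDHB, TPI1 and HK2 are lowest in shPRAME cells, PFKFB3, PFKP, ENO2 and NDRG1 in shBAP1 cells, and P4HA2 and EPAS1 are highest in shPRAME cells.

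Promoter windows of 4 members that the results turn on are shown first, to set genes called in different populations side by side. Each runs 250 bases up to the RefSeq transcription start on GRCh38.p14, 5′ to 3′ on the gene's strand, with every ACGTG or GCGTG, on either strand, in capitals. LDHA, at chr11:18394313-18394562 on the plus strand, and HK2, at chr2:74833877-74834126 on the plus strand, were lower in shPRAME cells. ENO2, at chr12:6914330-6914579 on the plus strand, was lower in shBAP1 cells. P4HA2, at chr5:132227092-132227341 on the minus strand, was higher in shPRAME cells.
LDHA: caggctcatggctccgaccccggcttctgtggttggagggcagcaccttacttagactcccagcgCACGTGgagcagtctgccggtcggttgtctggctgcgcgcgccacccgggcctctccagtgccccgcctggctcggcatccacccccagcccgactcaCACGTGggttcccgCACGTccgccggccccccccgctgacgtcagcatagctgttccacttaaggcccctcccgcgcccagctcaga
HK2: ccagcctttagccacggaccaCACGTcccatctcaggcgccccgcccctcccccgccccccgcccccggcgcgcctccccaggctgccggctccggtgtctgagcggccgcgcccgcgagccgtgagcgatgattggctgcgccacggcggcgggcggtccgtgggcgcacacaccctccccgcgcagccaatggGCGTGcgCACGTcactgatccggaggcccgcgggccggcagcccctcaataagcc
ENO2: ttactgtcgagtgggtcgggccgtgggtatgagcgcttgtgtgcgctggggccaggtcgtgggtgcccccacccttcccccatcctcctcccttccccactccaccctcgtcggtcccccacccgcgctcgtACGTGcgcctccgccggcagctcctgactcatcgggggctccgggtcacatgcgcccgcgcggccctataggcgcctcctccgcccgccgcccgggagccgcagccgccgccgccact
P4HA2: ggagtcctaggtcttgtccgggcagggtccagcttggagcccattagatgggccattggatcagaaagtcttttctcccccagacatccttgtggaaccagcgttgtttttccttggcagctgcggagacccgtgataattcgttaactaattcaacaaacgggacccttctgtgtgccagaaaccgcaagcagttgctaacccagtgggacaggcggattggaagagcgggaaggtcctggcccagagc
The LDHA window held 5 matches in 3 stretches, 2 of which were CACGTG, a palindrome that contains ACGTG on both strands and so counts as overlapping matches. The HK2 window held 3 matches, the ENO2 window 1 and the P4HA2 window none. A window was at hand for 34 members, and 21 of them (61.8%) held a core, against 58.3% of the windows of measured genes and 43.1% of all windows. ACGTG alone was in 13 member windows (38.2%), against 23.8% for measured genes and 18.7% for all, and CACGTG in 5 (14.7%), against 9.07% and 6.49%. A match describes letters and not binding.

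Against shEmpty, the glycolytic enzymes were called in the downward direction only. Of the 19 enzyme members, 5 were lower in shPRAME cells (26.3%, against 9.08% of all genes). There 17 had a ratio below 1 (89.5%, against 53.6%), with a median log2 ratio of -0.63. In shBAP1 cells 3 were lower (15.8%, against 8.56% of all genes) and 16 had a ratio below 1 (84.2%, against 52.4%). The median there was -0.37, although scaling by total count left 13 below 1. Summed over 17 enzyme genes, which leaves out the regulators PFKFB3 and PFKFB4, the pathway took 1.16% of all counts in shPRAME cells, 1.63% in shBAP1 cells and 1.91% in shEmpty cells. On the scaled counts this placed shPRAME cells at 59.3% and shBAP1 cells at 78.5% of shEmpty cells, with log2 ratios of -0.75 and -0.35. Without GAPDH, which had the most counts of them, the log2 ratios were -0.75 and -0.34. All 11 steps of the pathway, with their isoenzymes summed, were highest in shEmpty cells, but with scaling by total count aldolase and pyruvate kinase were highest in shBAP1 cells. Processed pseudogenes of GAPDH, LDHA, ENO1, PGK1, PGAM1 and TPI1 can take or lend reads, which makes their levels less certain.

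**Figure D2:**
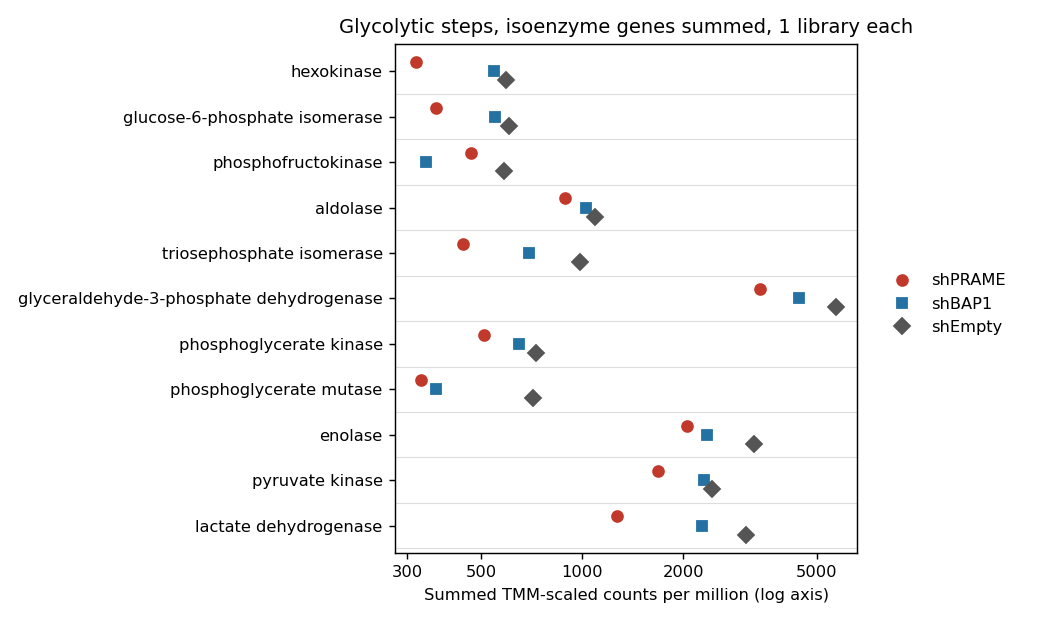
Summed TMM-scaled CPM (log axis) of the isoenzyme genes of each glycolytic step in the shPRAME, shBAP1 and shEmpty libraries, in pathway order from top to bottom. The shEmpty point is the rightmost at each of the 11 steps (with scaling by total count, not at aldolase and pyruvate kinase), and shBAP1 lies left of shPRAME only at phosphofructokinase.

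At entry to the pathway, the hexokinases HK1 and HK2 phosphorylate glucose. HK2, the inducible form common in tumours, had 68.9 CPM in shPRAME, 215 CPM in shBAP1 and 169 CPM in shEmpty cells. It was 2.45-fold lower in shPRAME cells (95% interval 2.30 to 2.62), and its fold in shBAP1 cells was 1.28 upward and not called. HK1, the form of most tissues, had 251 CPM in shPRAME, 329 CPM in shBAP1 and 424 CPM in shEmpty cells, with log2 ratios of -0.76 and -0.37 to shEmpty. Both hexokinases were thus lowest in shPRAME cells, but HK2 was highest in shBAP1 cells and HK1 in shEmpty cells. GPI, which isomerises glucose 6-phosphate, had 365 CPM in shPRAME, 549 CPM in shBAP1 and 605 CPM in shEmpty cells, and neither ratio was called.

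Phosphofructokinase, the committing step, was the step at which shBAP1 cells stood below shPRAME cells. PFKP, the platelet-type subunit, had 258 CPM in shPRAME, 120 CPM in shBAP1 and 315 CPM in shEmpty cells and was 2.62-fold lower in shBAP1 cells (2.49 to 2.77). PFKFB3, which makes fructose 2,6-bisphosphate, an activator of phosphofructokinase, had 397 CPM in shPRAME, 167 CPM in shBAP1 and 412 CPM in shEmpty cells and was 2.48-fold lower in shBAP1 cells (2.37 to 2.59). The shPRAME library lay close to shEmpty for both, with log2 ratios of -0.29 for PFKP and -0.06 for PFKFB3. PFKM, the muscle-type subunit, had 123 CPM in shPRAME, 164 CPM in shBAP1 and 185 CPM in shEmpty cells, and PFKL, the liver-type subunit, 83.2 CPM in shPRAME, 58.0 in shBAP1 and 82.4 in shEmpty cells. PFKFB4, a second bifunctional enzyme of fructose 2,6-bisphosphate, had 179 CPM in shPRAME, 266 CPM in shBAP1 and 228 CPM in shEmpty cells. None of PFKM, PFKL and PFKFB4 was called against shEmpty.

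The middle of the pathway held the lower calls TPI1 and PGAM1 in shPRAME cells. TPI1, which interconverts the triose phosphates, had 440 CPM in shPRAME, 693 CPM in shBAP1 and 982 CPM in shEmpty cells and was 2.23-fold lower in shPRAME cells (2.18 to 2.29). PGAM1, phosphoglycerate mutase, had 330 CPM in shPRAME, 365 CPM in shBAP1 and 715 CPM in shEmpty cells. It was 2.17-fold lower in shPRAME cells (2.10 to 2.23), while its fold in shBAP1 cells, 1.96 downward (1.90 to 2.02), fell just short of the limit, so the knockdowns were near each other and apart from shEmpty. GAPDH, the glyceraldehyde-3-phosphate dehydrogenase often used as a loading reference, had 3397 CPM in shPRAME, 4427 CPM in shBAP1 and 5724 CPM in shEmpty cells, with log2 ratios of -0.75 and -0.37. PGK1, which makes the first ATP of the pathway, had 508 CPM in shPRAME, 649 CPM in shBAP1 and 727 CPM in shEmpty cells. Neither GAPDH nor PGK1 was called. ALDOA, the main aldolase, had 857 CPM in shPRAME, 986 CPM in shBAP1 and 1069 CPM in shEmpty cells. ALDOC, the aldolase typical of brain, had 33.9 CPM in shPRAME, 36.7 in shBAP1 and 22.2 in shEmpty cells and had a log2 ratio of 0.61 in shPRAME cells. Neither aldolase was called. Besides ALDOC, the enzyme member PFKL had a shPRAME ratio above 1, though not once GC and length trends were removed (log2 -0.32).

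At the lower end, lactate dehydrogenase differed most among the 11 steps in shPRAME cells. LDHA, the subunit that favours lactate production, had 850 CPM in shPRAME, 1348 CPM in shBAP1 and 2125 CPM in shEmpty cells. LDHA fell by 1.32 on the log2 scale in shPRAME cells, a 2.50-fold difference (2.46 to 2.55), and its fold of 1.58 downward in shBAP1 cells was not called. LDHB, the subunit that favours lactate use, had 424 CPM in shPRAME, 926 CPM in shBAP1 and 964 CPM in shEmpty cells and was 2.27-fold lower in shPRAME cells (2.21 to 2.33). The LDHB call ended when GC and length trends were removed (log2 -0.91). With both genes summed, shPRAME cells stood at 41.3% and shBAP1 cells at 73.6% of shEmpty cells. ENO2, the neuronal enolase, had 76.0 CPM in shPRAME, 37.2 CPM in shBAP1 and 118 CPM in shEmpty cells and was 3.17-fold lower in shBAP1 cells (2.89 to 3.49). ENO1, the common enolase, had 1979 CPM in shPRAME, 2326 CPM in shBAP1 and 3125 CPM in shEmpty cells, and PKM, pyruvate kinase, 1686 CPM in shPRAME, 2306 in shBAP1 and 2435 in shEmpty cells. Neither was called, and both were lowest in shPRAME cells.

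**Figure D3:**
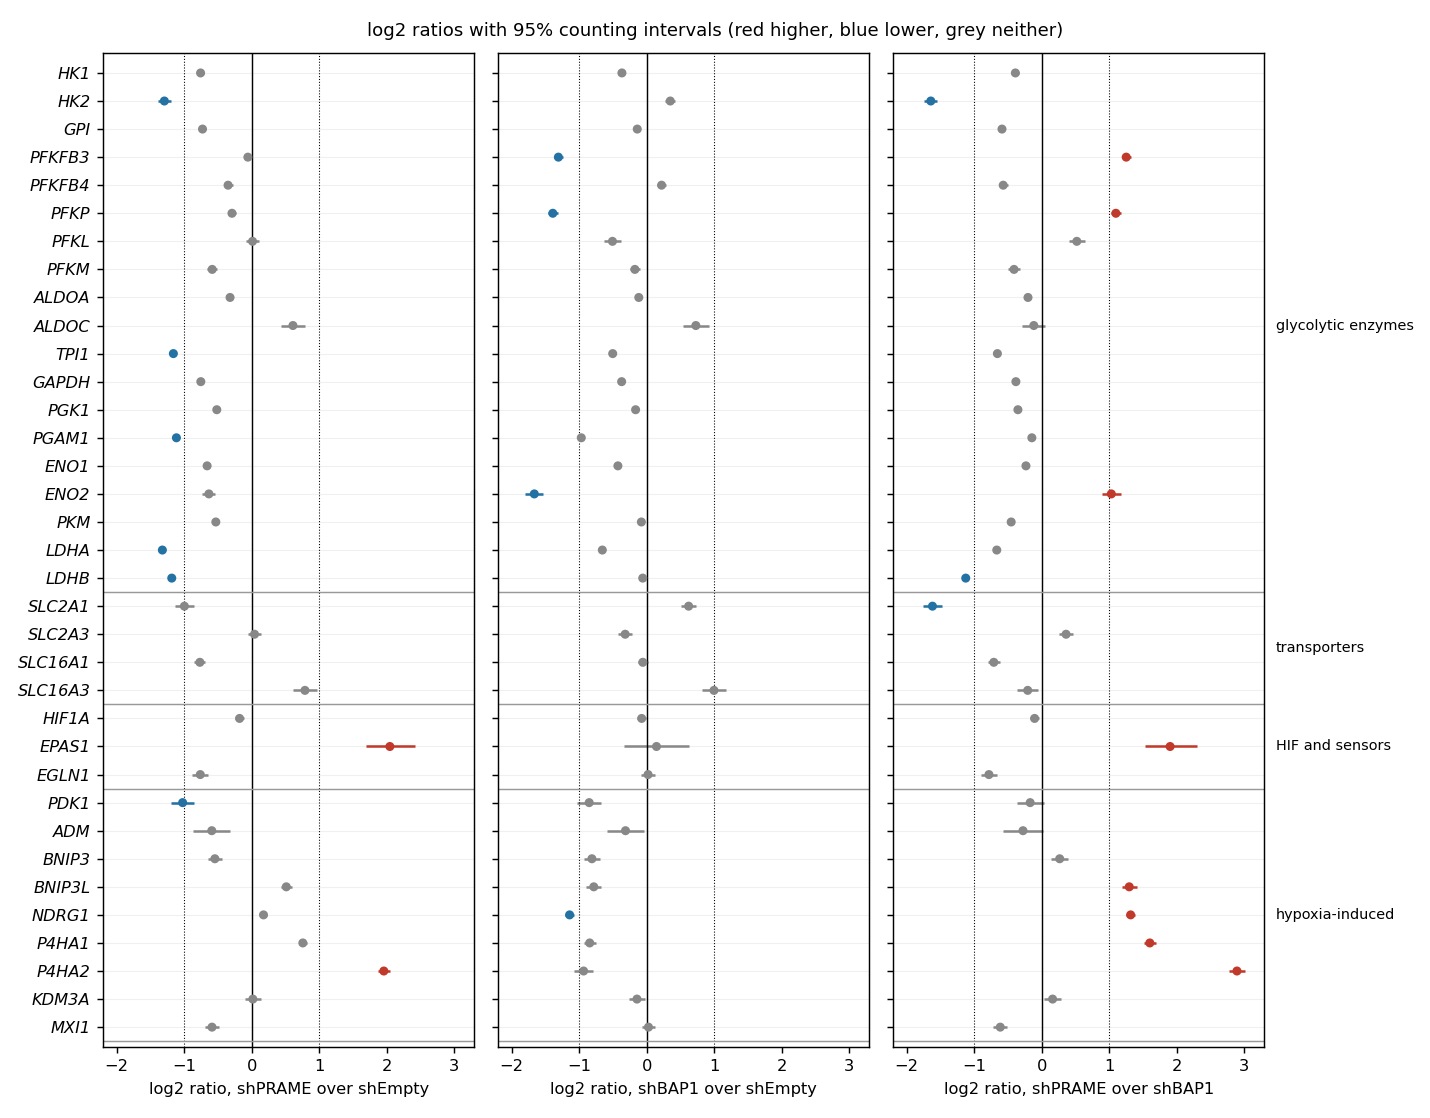
Log2 ratios of the measured members, grouped by role, for shPRAME over shEmpty, shBAP1 over shEmpty and shPRAME over shBAP1, with exact 95% counting intervals as bars, the 2-fold limits as dotted lines and called genes in red (higher) or blue (lower). The enzyme points lie mostly left of 0 in both comparisons with shEmpty, while P4HA2 and EPAS1 lie past the upper limit in shPRAME cells.

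Per length of transcript, the members spanned a wide range. GAPDH had 2520 CPM per kilobase in shPRAME, 3284 in shBAP1 and 4246 in shEmpty cells, and ENO1 had 1110 CPM per kilobase in shPRAME, 1305 in shBAP1 and 1754 in shEmpty cells. EPAS1 was the lowest measured member in shEmpty cells, with 3.46 CPM per kilobase in shPRAME, 0.926 in shBAP1 and 0.837 in shEmpty cells.

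No transporter was called against shEmpty, yet SLC2A1 and SLC16A3 lay at the limit. SLC2A1, the glucose transporter GLUT1 and a HIF target, had 33.4 CPM in shPRAME, 103 CPM in shBAP1 and 66.6 CPM in shEmpty cells. Its fold in shPRAME cells was 1.995 downward (1.81 to 2.20), and it was called lower (log2 -1.07) once GC and length trends were removed. SLC16A3, the lactate exporter MCT4, had 36.7 CPM in shPRAME, 42.3 CPM in shBAP1 and 21.2 CPM in shEmpty cells. Its fold in shBAP1 cells was 1.997 upward (1.76 to 2.27), and scaling by total count, upper-quartile scaling and removal of the trends each called it higher. SLC2A3, the high-affinity transporter GLUT3, had 105 CPM in shPRAME, 81.4 CPM in shBAP1 and 102 CPM in shEmpty cells; its near-identical paralog SLC2A14 makes that level uncertain. SLC16A1, the lactate transporter MCT1, had 106 CPM in shPRAME, 173 CPM in shBAP1 and 180 CPM in shEmpty cells. SLC2A1 and SLC16A1 were lowest in shPRAME cells, and SLC16A3 was lowest in shEmpty cells.

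Among the HIF subunits and sensors, EPAS1 alone was called. EPAS1, which encodes HIF-2 alpha, had 17.9 CPM in shPRAME, 4.78 CPM in shBAP1 and 4.32 CPM in shEmpty cells, from 327 counts in shPRAME, 71 in shBAP1 and 81 in shEmpty cells. It was 4.14-fold higher in shPRAME cells (3.24 to 5.34), and its fold in shBAP1 cells was 1.11 (0.793 to 1.54). HIF1A, which encodes HIF-1 alpha, was close in all libraries, with 214 CPM in shPRAME, 230 CPM in shBAP1 and 242 CPM in shEmpty cells. Even in shPRAME cells, HIF1A was the higher of the alpha subunits per length, with 54.5 CPM per kilobase against 3.46 for EPAS1. EGLN1, the main oxygen sensor, had 49.6 CPM in shPRAME, 85.3 CPM in shBAP1 and 84.1 CPM in shEmpty cells, and neither ratio was called. EGLN3, an inducible sensor, had 10 counts in shPRAME, 2 in shBAP1 and 12 in shEmpty cells and was too low to measure.

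The calls among the hypoxia-induced members were close to the shares over all genes. Of the 9 measured, 1 was higher and 1 lower in shPRAME cells (11.1% each, against 10.2% higher and 9.08% lower over all genes), with a median log2 ratio of 0.02. In shBAP1 cells none was higher and 1 lower (11.1%, against 8.56% lower over all genes), with a median of -0.81, and 8 of the 9 had a ratio below 1 (88.9%, against 52.4% of all genes). The inducible genes CA9, a carbonic anhydrase, with 1 count in shPRAME, 1 in shBAP1 and 0 in shEmpty cells, and ANKRD37, with 11 counts in shPRAME, 12 in shBAP1 and 11 in shEmpty cells, were too low to measure. No count of CA9 in shEmpty cells allows a level of up to 0.160 CPM.

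The collagen prolyl 4-hydroxylase subunits were highest in shPRAME and lowest in shBAP1 cells. P4HA2 had 298 CPM in shPRAME, 40.1 CPM in shBAP1 and 76.6 CPM in shEmpty cells and was 3.89-fold higher in shPRAME cells (3.67 to 4.12); in shBAP1 cells its fold was 1.91 downward. P4HA1 had 295 CPM in shPRAME, 97.2 CPM in shBAP1 and 174 CPM in shEmpty cells, and neither ratio was called. Fibroblast markers also differed: the 8 listed genes summed to 805 CPM in shPRAME, 275 CPM in shBAP1 and 73.4 CPM in shEmpty cells. The largest contributor in shPRAME and shBAP1 cells was the collagen gene COL1A2, with 670 CPM in shPRAME, 170 CPM in shBAP1 and 6.35 CPM in shEmpty cells. The sums ranked the libraries as COL1A2 did and do not stand for the list as a whole. Of the other measured genes, FAP was higher in both knockdowns and PDGFRB in shPRAME cells only. PDGFRA was 6.31-fold lower in shBAP1 cells and not called in shPRAME cells, and LUM was called in neither. COL1A1 had 23 counts in shPRAME, 3 in shBAP1 and 1 in shEmpty cells, and none of the 8 was at 0 in all libraries. The part of the fibroblast markers in the P4HA2 result was not tested.

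NDRG1, a stress-responsive gene that is a standard marker of hypoxia, had 440 CPM in shPRAME, 177 CPM in shBAP1 and 389 CPM in shEmpty cells. It was 2.21-fold lower in shBAP1 cells (2.11 to 2.31), with shPRAME near shEmpty. PDK1, the kinase that holds back pyruvate dehydrogenase, had 23.5 CPM in shPRAME, 26.5 CPM in shBAP1 and 47.8 CPM in shEmpty cells, so it was highest in the control. It was 2.03-fold lower in shPRAME cells (1.81 to 2.28), but that call ended with scaling by total count (log2 -0.98), upper-quartile scaling (-0.93), a pseudocount of 1 CPM (-0.99) and removal of GC and length trends (-0.90). The mitophagy receptor BNIP3 had 66.1 CPM in shPRAME, 55.0 CPM in shBAP1 and 96.4 CPM in shEmpty cells, and its relative BNIP3L 154 CPM in shPRAME, 62.5 in shBAP1 and 108 in shEmpty cells. Both were lowest in shBAP1 cells, without a call. ADM, the vasodilator adrenomedullin, had 10.2 CPM in shPRAME, 12.3 CPM in shBAP1 and 15.3 CPM in shEmpty cells. KDM3A, a histone demethylase, had 68.6 CPM in shPRAME, 61.4 in shBAP1 and 67.8 in shEmpty cells. MXI1, a MAX partner that opposes MYC, had 75.8 CPM in shPRAME, 116 in shBAP1 and 114 in shEmpty cells. None of ADM, KDM3A and MXI1 was called.

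Set against each other, the knockdowns differed in 11 of the 35 members: 8 were higher and 3 lower in shPRAME than in shBAP1 cells, where 25.1% of all genes were called, with 14.2% higher and 10.9% lower. Among the genes higher in shPRAME cells, P4HA2 differed most, at 7.43-fold (6.83 to 8.10), followed by EPAS1 at 3.74-fold (2.89 to 4.91) and P4HA1 at 3.04-fold (2.87 to 3.22). NDRG1 was 2.49-fold higher (2.39 to 2.61) and BNIP3L 2.46-fold (2.28 to 2.65). The enzyme genes PFKFB3, PFKP and ENO2 were higher in shPRAME cells by 2.38-fold (2.28 to 2.50), 2.14-fold (2.03 to 2.26) and 2.05-fold (1.85 to 2.26). Removal of GC and length trends ended these enzyme calls, with log2 ratios of 0.96, 0.93 and 0.96, and scaling by total count ended that of ENO2 (0.95). HK2 was 3.12-fold lower in shPRAME cells (2.93 to 3.34), SLC2A1 3.07-fold (2.79 to 3.38) and LDHB 2.18-fold (2.12 to 2.24). LDHB lost its call once the trends were removed (-0.78).

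The balance between related genes needs no scaling, since each pair is read within a library. Removal of GC and length trends was not tried on the pairs, whose partners can differ in GC content (64.3% for SLC16A3, 41.7% for SLC16A1). Without the pair of EGLN3, which had too few counts, 12 pairs were read, and the count ratio differed at least 2-fold from shEmpty in 5 for shPRAME and in 4 for shBAP1, and between the knockdowns in 8. The ratio of EPAS1 to HIF1A was 4.68 times that of shEmpty in shPRAME cells (3.65 to 6.07) and 1.16 times in shBAP1 cells (0.832 to 1.63). For the glucose transporters the knockdowns lay on opposite sides of shEmpty. SLC2A3 to SLC2A1 was 2.06 times the shEmpty ratio in shPRAME cells (1.83 to 2.31) and 0.521 times in shBAP1 cells (0.469 to 0.579). The ratio of the lactate transporters SLC16A3 to SLC16A1 was above that of shEmpty under both hairpins, at 2.94 times (2.56 to 3.38) in shPRAME and 2.08 times (1.81 to 2.39) in shBAP1 cells. HK2 to HK1 was 0.689 times the shEmpty ratio in shPRAME cells (0.639 to 0.743) and 1.64 times in shBAP1 cells (1.55 to 1.75). ENO2 to ENO1 was 1.02 times in shPRAME cells (0.951 to 1.09) and 0.424 times in shBAP1 cells (0.385 to 0.466), and PFKFB4 to PFKFB3 was 2.89 times in shBAP1 cells (2.71 to 3.07). LDHB made up 42.4% of the lactate dehydrogenase pair per length in shPRAME cells, 50.3% in shBAP1 cells and 40.1% in shEmpty cells, so the balance in shPRAME cells lay nearer that of shEmpty.

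**Figure D4:**
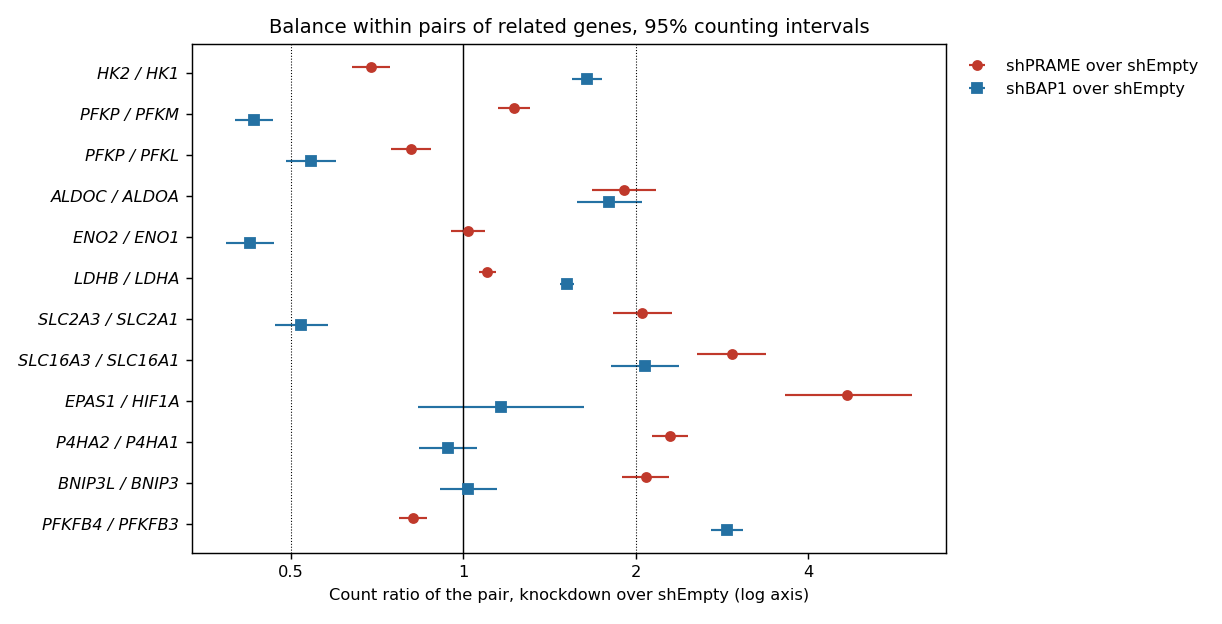
Count ratio of the first gene to the second of each pair in a knockdown library, over the same ratio in the shEmpty library (log axis), with exact 95% counting intervals as bars and the 2-fold limits as dotted lines. EPAS1/HIF1A is farthest right in shPRAME cells. HK2/HK1, PFKP/PFKM, SLC2A3/SLC2A1 and PFKFB4/PFKFB3 lie on opposite sides of 1 in the knockdowns, with both intervals clear of 1.

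Other genes of the same pathways were called in both directions. Of 40 other hypoxia-induced genes measured, 8 were higher (20%, against 10.2% of all genes) and 3 lower (7.5%, against 9.08%) in shPRAME cells. In shBAP1 cells 2 were higher (5%, against 5.53%) and 11 lower (27.5%, against 8.56%). These comparisons share the shEmpty library, and the list was chosen with earlier results of these data known. STC1, a secreted glycoprotein hormone, had 466 CPM in shPRAME, 1.62 CPM in shBAP1 and 60.3 CPM in shEmpty cells, 7.73-fold higher in shPRAME and 37.3-fold lower in shBAP1 cells. IGFBP3, which binds insulin-like growth factors, had 450 CPM in shPRAME, 31.8 CPM in shBAP1 and 78.7 CPM in shEmpty cells, and ANGPTL4, a lipase inhibitor, 17.8 CPM in shPRAME, 0.876 in shBAP1 and 3.42 in shEmpty cells. Both genes were called higher in shPRAME and lower in shBAP1 cells, as was STC1. RORA, a nuclear receptor, was lower in both, with 1.75 CPM in shPRAME, 1.01 CPM in shBAP1 and 7.63 CPM in shEmpty cells. PLOD2, a lysyl hydroxylase of collagen, was higher in both, with 17.1 CPM in shPRAME, 35.2 CPM in shBAP1 and 8.27 CPM in shEmpty cells. VLDLR, a lipoprotein receptor, was 5.26-fold lower in shBAP1 cells and not called in shPRAME cells, with 27.6 CPM in shPRAME, 3.71 CPM in shBAP1 and 19.5 CPM in shEmpty cells.

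Of 15 measured genes for HIF turnover and its partners, none was called in shPRAME cells, where 19.3% of all genes were called. In shBAP1 cells 1, CITED2, was called (6.67%, against 14.1% of all genes). CITED2, which competes with HIF for the coactivator p300, had 3.99 CPM in shPRAME, 73.4 CPM in shBAP1 and 5.92 CPM in shEmpty cells, 12.4-fold higher in shBAP1 cells (10.2 to 15.2). Among 17 upstream regulators of glycolytic genes, 2 were higher (11.8%, against 10.2% of all genes) and 1 lower (5.88%, against 9.08%) in shPRAME cells. In shBAP1 cells 3 were higher (17.6%, against 5.53%). TXNIP, an inhibitor of glucose uptake that glucose itself induces, had 39.1 CPM in shPRAME, 26.0 CPM in shBAP1 and 11.2 CPM in shEmpty cells, and its relative ARRDC4 had 7.93 CPM in shPRAME, 5.73 in shBAP1 and 1.17 in shEmpty cells. Both were called higher in both knockdowns. PPARGC1A, a coactivator of mitochondrial genes, had 0.656 CPM in shPRAME, 21.0 CPM in shBAP1 and 9.23 CPM in shEmpty cells, 14.1-fold lower in shPRAME and 2.28-fold higher in shBAP1 cells.

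Where pyruvate enters mitochondria, 2 of 14 genes were higher in shPRAME cells (14.3%, against 10.2% of all genes). In shBAP1 cells 1 was higher and 1 lower (7.14% each, against 5.53% higher and 8.56% lower over all genes). PDK4, a kinase of pyruvate dehydrogenase like PDK1, had 207 CPM in shPRAME, 15.2 CPM in shBAP1 and 62.6 CPM in shEmpty cells, 3.31-fold higher in shPRAME and 4.11-fold lower in shBAP1 cells. PC, pyruvate carboxylase, was higher in shPRAME cells, with 133 CPM against 57.5 CPM in shEmpty cells. MPC1, a subunit of the mitochondrial pyruvate carrier, was higher in shBAP1 cells, with 33.3 CPM against 14.6 CPM in shEmpty cells. Of 7 other glycolytic isoenzymes and relatives of such enzymes, 2 were lower in shPRAME cells (28.6%, against 9.08% of all genes). In shBAP1 cells 1 was higher (14.3%, against 5.53%). ADPGK, an ADP-dependent glucokinase, was lower in shPRAME cells, with 20.4 CPM against 53.2 CPM in shEmpty cells. The mitochondrial phosphatase PGAM5 was lower there too, with 42.3 CPM against 88.1 CPM in shEmpty cells. HKDC1, a hexokinase relative, was higher in shBAP1 cells, with 8.02 CPM against 3.15 CPM in shEmpty cells.

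**Figure D5:**
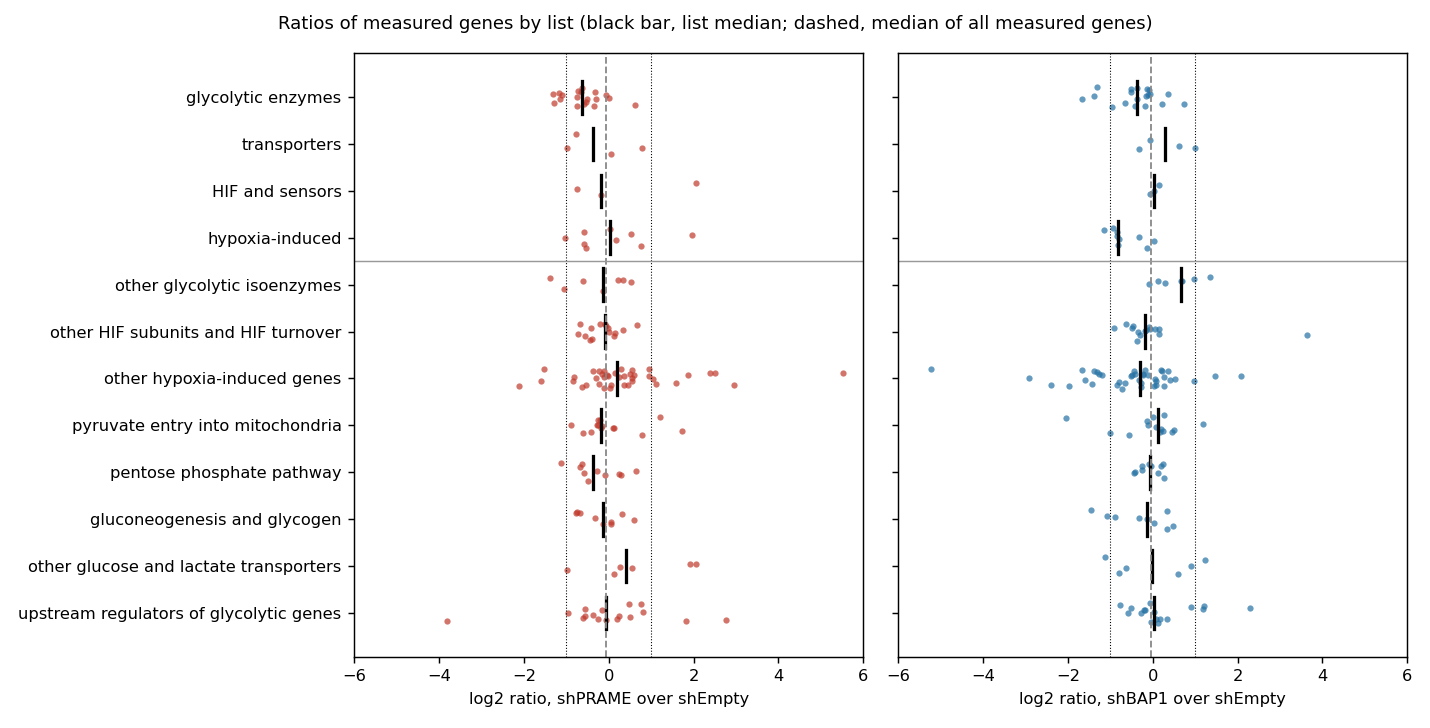
Log2 ratio to shEmpty of every measured gene of each list in shPRAME (left) and shBAP1 (right) cells, with the list median as a black bar, the median of all measured genes as a dashed line and the 2-fold limits as dotted lines; the 4 rows above the grey line are the members by role. The enzyme medians lie at -0.63 and -0.37, and those of the other hypoxia-induced genes at 0.20 in shPRAME and -0.30 in shBAP1 cells.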

How the data were processed

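The deposited values are raw read counts, not normalized by the authors, for 1 library each of shPRAME (18456328 counts), shBAP1 (14181829) and shEmpty (19430130). Per the labels' protocols, libraries were made with a directional mRNA kit and read as pairs of 100 bases. The tools in the submitters' processing notes are edgeR, Cufflinks, TopHat and FastQC, and the assembly is hg19 (GRCh37). How reads were assigned to genes, with which annotation and whether by strand, is not given in the sources, so overlapping, antisense and near-identical genes are uncertain.

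TMM factors came from edgeR 4.0.16 in R 4.3.3, and log2 ratios of scaled counts were taken without a pseudocount. With 1 library a group no p-value was computed. Intervals are exact conditional binomial or, for pairs, exact conditional odds-ratio intervals at 95%, for counting error only, and 1 read pair need not be 1 molecule. A count of 0 was given a floor of 3 counts. Lengths and GC content came from GENCODE 29 (GRCh38), matched by symbol for all 38 members and 95.3% of measured genes, as the principal transcript of median length. That build differs from the files', so it gave no coordinates for them. Promoters are RefSeq windows on GRCh38.p14, matched by symbol for 34 members.

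The members and the 8 further lists were chosen with earlier results of these data known. All members are accounted for, and up to 4 genes of largest absolute ratio per further list and comparison with shEmpty were eligible to be named. A gene that this rule names is not reported here. As alternatives, libraries were scaled with DESeq2 1.42.0 size factors, upper quartiles or total counts, and each of these was also tried: a count minimum of 10 or none, a fold limit of 1.5, a pseudocount of 1 CPM and removal of GC and length trends. The procedure was tested on simulated data. Intervals used scipy 1.17.1, tables pandas 2.3.3 and numpy 2.4.6, trends statsmodels 0.14.6 and plots matplotlib 3.10.9, all under Python 3.11.15.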

Additional observations from a re-analysis of the deposited data

How the results depend on the processing

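The median log2 ratio of the members stayed below 0 in each comparison under every alternative run, and no called value changed its direction. With a fold limit of 1.5 in place of 2, 5 members were higher and 16 lower in shPRAME cells than in shEmpty cells, 3 higher and 11 lower in shBAP1 cells than in shEmpty cells, and 9 lower in shPRAME than in shBAP1 cells. At that limit the calls over all genes rose too. They took in 41% of all genes in shPRAME and 30.5% in shBAP1 cells against shEmpty, and 48.1% between the knockdowns. Of these all-gene calls 47.3%, 41.8% and 49.5% were upward. The number of members higher in shBAP1 cells was 1 with total-count scaling, upper-quartile scaling or removal of GC and length trends. After that removal 5 members were higher in shPRAME than in shBAP1 cells. The log2 ratio of the summed enzyme genes ranged over the scalings, which were added after the data were seen, from -0.75 to -0.67 in shPRAME cells against shEmpty, from -0.35 to -0.23 in shBAP1 cells against shEmpty, and from -0.48 to -0.38 between shPRAME and shBAP1 cells. Of the single-gene values under the alternatives, 383 stayed within their counting interval and 142 moved outside it. Depth limits EPAS1, ADM, EGLN3, CA9 and ANKRD37 most. No paired analysis was possible because each population is 1 library, and no library could be left out.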

Other observations

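Among pathways that branch from glycolysis, 1 of 10 pentose phosphate genes, which make ribose and NADPH, was lower in shPRAME cells (10%, against 9.08% of all genes). It was PRPS2, a phosphoribosyl pyrophosphate synthetase, with 44.4 CPM in shPRAME, 72.2 CPM in shBAP1 and 97.1 CPM in shEmpty cells. None of the 10 was called in shBAP1 cells. Of 9 gluconeogenesis and glycogen genes, 2 were lower in shBAP1 cells (22.2%, against 8.56% of all genes) and none was called in shPRAME cells. PYGB, the brain form of glycogen phosphorylase, had 1409 CPM in shPRAME, 569.6 CPM in shBAP1 and 1560 CPM in shEmpty cells, 2.74-fold lower in shBAP1 cells. PGM1, which links glucose 1-phosphate to glycolysis, had 153 CPM in shPRAME, 69.5 CPM in shBAP1 and 147 CPM in shEmpty cells. Both were thus lowest in shBAP1 cells, with shPRAME near shEmpty.

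Of 6 other glucose and lactate transporters, 2 were higher in shPRAME cells (33.3%, against 10.2% of all genes). In shBAP1 cells 1 was higher and 1 lower (16.7% each, against 5.53% higher and 8.56% lower over all genes). SLC16A4, of the monocarboxylate transporter family, was higher in both, with 58.0 CPM in shPRAME, 32.6 CPM in shBAP1 and 13.9 CPM in shEmpty cells. SLC2A13, a proton-coupled myo-inositol transporter, was 3.80-fold higher in shPRAME cells, with 121 CPM in shPRAME, 18.3 CPM in shBAP1 and 31.8 CPM in shEmpty cells. SLC16A6, of the monocarboxylate family too, was 2.17-fold lower in shBAP1 cells.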
